A study of Mus musculus with 18 samples.

Results

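Day 11 of gestation, called mid-pregnancy (MP), was set against the non-pregnant state (Sed/NP) in the mouse left ventricle, using 3 MP arrays and 3 Sed/NP arrays out of 18 in the series. The arrays were chosen by their group labels, and every probe set other than the array's own controls was tested, 45037 in all. The MP animals were pregnant female C57Bl/6 mice and the Sed/NP animals were virgin females in diestrus with no running wheel, all 3 to 4 months old and wild type. Each array carried equal amounts of RNA pooled from 2 to 3 hearts after atria, right ventricle and vessels had been trimmed off, so n = 3 pools a group, and p-values measure the spread between pools. The other groups, with 3 arrays each, were mice that ran on a wheel for 7 days (7Ex) or 21 days (21Ex), late pregnancy (LP) and the first hours after birth (0PP).

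During pregnancy the blood volume and cardiac output of the mother increase, and the left ventricle grows. The study describes a passing drop of systolic function in late pregnancy. The mother's circulation carries raised progesterone, estrogens, glucocorticoids and placental hormones, her red cell production expands, and her fat stores and blood lipids shift. Progesterone and glucocorticoids act through nuclear receptors that bind closely related DNA elements, and several of their target genes, such as Fkbp5, Zbtb16 and Tsc22d3, respond to either.

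Values are RMA values, a background-corrected and quantile-normalized intensity on the log2 scale, of which 1 unit is a doubling. Of the 45037 probe sets, 34945 were annotated to 1 gene, which gave 18193 genes. A gene was counted as changed where at least 1 of its own probe sets had a limma p under 0.05 after Benjamini-Hochberg adjustment over all probe sets, and as called where that probe set also differed by at least 75%. By this rule 35 genes (0.192% of those tested) were called higher in MP and 32 (0.176%) lower. Without the size limit 213 genes (1.17%) rose and 171 (0.94%) fell, 1 of them at different probe sets in both directions. An unadjusted limma p under 0.05, in either direction, was found for 6405 of the 45037 probe sets. Array medians lay between 4.93 and 5.02 in all 18 arrays.

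The counts depended on single pools. Leaving out MP-1 gave 50 called rises and 234 called falls, leaving out MP-2 gave 41 and 7, and leaving out MP-3 gave 15 and 3. Without Sed/NP-1 there were 42 and 7, without Sed/NP-2 28 and 9, and without Sed/NP-3 20 and 35. Among the 35 called rises MP-3 was the pool furthest from Sed/NP in 27. Among the 32 called falls MP-1 was the nearest to Sed/NP in 28. The beta-actin 3′ minus 5′ signal, a measure of RNA integrity, was 1.32, 1.32 and 1.35 log2 units in MP against 1.11, 1.36 and 1.17 in Sed/NP (exact permutation p = 0.4, two-sided, smallest possible 0.1). With that signal as a covariate 8 rises and 2 falls were called, of which 7 and 1 were among the 35 and 32. The sizes stayed similar: the median of the 35 rises was 0.96 with the covariate and 0.99 without it, that of the 32 falls -0.85 and -0.91, and all 67 kept their sign. The median standard error was 0.217 with the covariate and 0.178 without it for the rises, and 0.233 and 0.196 for the falls. The part of RNA integrity in the single results was not tested.

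The 14 cardiomyocyte markers averaged 13.8 in every MP and Sed/NP array, and their difference was -0.01. Of 13 cell type lists 5 were higher in all 3 MP arrays than in all 3 Sed/NP arrays, beside 9.33% of single probe sets that did the same and 8.03% that were lower throughout. Adipocyte markers averaged 7.54, 7.24 and 7.16 in MP against 6.79, 6.90 and 6.86 in Sed/NP, macrophage markers 8.04, 8.18 and 8.20 against 7.80, 7.68 and 7.60, erythroid markers 4.68, 4.53 and 4.80 against 4.38, 4.34 and 4.44, and platelet markers 6.06, 6.02 and 6.05 against 5.86, 5.76 and 5.74. Brown adipocyte markers, the fifth such list, were higher by 0.17. Atrial markers were 9.41, 8.08 and 8.34 in MP and 8.19, 8.60 and 7.62 in Sed/NP and overlapped, with MP-1 the highest. In tissue RNA more cells of a type and more RNA per cell cannot be told apart.

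**Figure D1:**
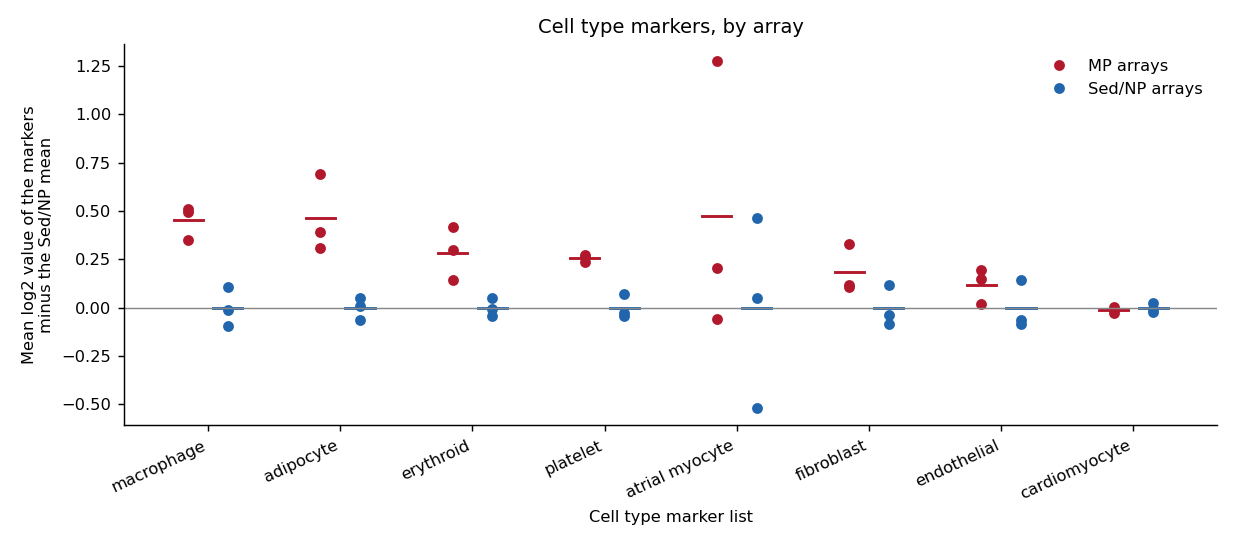
Mean log2 value of each cell type's markers in each MP and Sed/NP array, as the difference from the Sed/NP mean (vertical axis, log2 units), with 1 point per array. The adipocyte and macrophage points of MP lie about 0.47 and 0.45 above the Sed/NP mean on average, the cardiomyocyte points lie at 0, and the atrial points of MP spread widely.

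The largest rise was that of carbonic anhydrase 3 (Car3), an abundant enzyme of fat cells and slow skeletal muscle. Car3 measured 10.22, 9.26 and 8.44 in the MP pools against 5.76, 7.41 and 6.58 in the Sed/NP pools. Adiponectin (Adipoq), a hormone made by fat cells that acts on heart and liver, measured 7.42, 6.27 and 5.05 in MP against 3.27, 4.22 and 3.87 in Sed/NP. For both genes the groups did not overlap, MP-1 was the highest pool, MP-3 the lowest of MP, and the spread within MP was 0.89 and 1.18 (SD, n = 3). The log2 differences were 2.72 ± 0.45 for Car3 (SE, limma adjusted p = 0.00743, a 6.59-fold rise) and 2.46 ± 0.43 for Adipoq (adjusted p = 0.0102, 5.51-fold), and each stayed past the threshold with any of the 6 arrays left out.

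Of 24 adipocyte and lipid storage genes 2 rose, Car3 and Adipoq, and 0 fell, with a median of 0.15 beside 0.03 over all genes at the probe set of highest mean. At an unadjusted p under 0.05 there, 9 were higher and 1 lower, beside 6405 of all 45037 probe sets in either direction. The fat cell genes Cfd and Plin1 had no probe set annotated to them alone and were not analysed here. The rise of the adipocyte markers rests largely on Adipoq, which is 1 of the 8. The other 7 lay between -0.03 (Lep, leptin) and 0.34 (Retn, resistin) and none passed. Cidec, a lipid droplet protein of fat cells, was at 3.62, 3.45 and 3.51 in MP against 3.31, 3.29 and 3.33 in Sed/NP, below the median of the arrays. The fatty acid carrier Fabp4, which endothelium also makes, differed by 0.15 ± 0.07 (adjusted p = 0.323). The share of fat cell RNA in the rises of Car3 and Adipoq was not tested.

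Among 15 genes of fat synthesis 2 rose. Thrsp, a thyroid hormone responsive regulator of lipogenesis, measured 9.13, 9.06 and 9.07 in MP against 8.34, 8.33 and 7.97 in Sed/NP, a difference of 0.87 ± 0.10 (adjusted p = 0.000577) with little spread in MP. Scd1, the desaturase that makes oleate, measured 7.98, 8.06 and 7.14 against 6.87, 6.98 and 6.66, a difference of 0.89 ± 0.19 (adjusted p = 0.0305). Thrsp passed in each fit with 1 array left out, while Scd1 passed only without MP-3 and lost the threshold without any 1 of the other 5 (adjusted p = 0.0609 to 0.15). Of 22 fatty acid oxidation genes 2 fell, the mitochondrial gatekeeper Cpt1a (-0.45 ± 0.10, adjusted p = 0.0351) and the ketone body enzyme Acat1 (-0.38 ± 0.07, adjusted p = 0.0169). Cpt1a passed without MP-1 and missed the threshold without any 1 of the other 5 arrays, and Acat1 missed it without MP-2, MP-3 or Sed/NP-2.

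Of 41 measured genes of red cell proteins and heme synthesis, 9 rose and 0 fell, and 6 of the 9 were called. The median of the list was 0.10. The upstream sequences of the pair with the largest rises are shown to set their starts side by side. They are the 250 bases before the start site in RefSeq (GRCm38.p6), 5′ to 3′ on the gene's strand, Alas2 at chrX:150547167-150547416 on the plus strand and Tent5c at chr3:100489193-100489442 on the minus strand. Capitals mark the motif AGATAA, the core that GATA factors of red cell precursors bind, on either strand.
Alas2: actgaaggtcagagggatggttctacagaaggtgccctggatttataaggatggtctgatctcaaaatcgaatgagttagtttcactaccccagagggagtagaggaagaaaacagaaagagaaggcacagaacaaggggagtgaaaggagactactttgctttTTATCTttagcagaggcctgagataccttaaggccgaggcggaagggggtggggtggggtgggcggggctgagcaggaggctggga
Tent5c: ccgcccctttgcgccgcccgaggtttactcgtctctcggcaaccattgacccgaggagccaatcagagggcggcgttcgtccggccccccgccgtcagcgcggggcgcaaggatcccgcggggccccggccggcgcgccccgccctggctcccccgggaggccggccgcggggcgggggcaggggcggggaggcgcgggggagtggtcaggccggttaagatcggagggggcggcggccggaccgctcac
The Alas2 window holds the motif once, as its reverse complement, 81 to 86 bases before the start, and the Tent5c window does not hold it. Of the 6 called genes of the list, which include Isg20 and Ube2l6, neither confined to red cells, 5 were in the promoter table, with 7 start sites. AGATAA was held by 2 of these genes, Alas2 and Isg20, and by 9.99% of 32851 start sites. The CACCC-box letters CCACACCC were in none of the 7 windows, against 3.2% of all, and the E-box letters CANNTG were in 1 of the 5 genes, against 66.2% of all start sites. These are matches of letters and say nothing of binding.

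Alas2, the enzyme that starts heme synthesis in red cell precursors, measured 8.56, 8.29 and 8.94 in MP against 7.19, 7.24 and 6.98 in Sed/NP. Tent5c, a poly(A) polymerase that is expressed in maturing erythroblasts and B cells, measured 6.64, 6.70 and 7.43 against 5.28, 5.34 and 5.24. In both the lowest MP pool was more than 1 log2 unit above the highest Sed/NP pool. Alas2 rose by 1.46 ± 0.13 (adjusted p = 5.61e-05, 2.76-fold) and Tent5c by 1.63 ± 0.17 (adjusted p = 0.000278, 3.1-fold). Bpgm, which makes the 2,3-bisphosphoglycerate that lowers the oxygen affinity of hemoglobin, measured 6.87, 6.71 and 7.18 in MP against 6.19, 5.91 and 5.88 in Sed/NP, and each of its 3 probe sets rose (0.93 ± 0.11 at the one shown). These 3 genes passed with any 1 array left out and in every other alternative run.

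Other rises were smaller or less stable. Outside the list, a probe set of the beta-globin gene Hbb-b2 measured 7.79, 7.55 and 8.11 in MP against 6.33, 6.86 and 6.71 in Sed/NP (1.19 ± 0.23, adjusted p = 0.0168). Its near-identical neighbor genes may share that signal, so the gene is uncertain. The red cell anion exchanger Slc4a1 measured 4.59, 4.27 and 5.70 against 3.73, 3.92 and 3.93 (0.99 ± 0.22, adjusted p = 0.0351), where MP-3 stood far above the other pools. Slc25a37, the mitochondrial iron importer mitoferrin, rose by 0.46 ± 0.07 (adjusted p = 0.00364), and the exonuclease Isg20, the ubiquitin carrier Ube2l6, the ubiquitin ligase Mkrn1 and the survival factor Bcl2l1, none of them confined to red cells, rose by 0.45 to 1.10. Without MP-3 the list had 4 rises (Alas2, Tent5c, Bpgm and Slc25a37), and Slc4a1 (0.57, adjusted p = 0.0651) did not pass, nor did Hbb-b2 (1.04, adjusted p = 0.106). Slc4a1 also failed without any 1 Sed/NP array, and Hbb-b2 without Sed/NP-1 (1.03, adjusted p = 0.0719).

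The defining erythroid markers themselves were low. Of 9 markers Alas2 and Slc4a1 rose and the other 7 lay between -0.24 (Hba-a2) and 0.16 (Rhag) without passing. Gata1, the master regulator of the lineage, was at 3.79, 3.71 and 3.69 in MP against 3.69, 3.62 and 3.94 in Sed/NP, the Rh glycoprotein Rhag at 3.04, 3.01 and 2.85 against 2.84, 2.67 and 2.89, and the alpha-globin probe set of Hba-a1 at 3.73, 3.55 and 3.72 against 3.58, 3.55 and 3.57. All of these values are below the array medians, and the groups overlap for Gata1 and Hba-a1. The part of blood left in the ventricle in the erythroid rises was not tested.

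**Figure D2:**
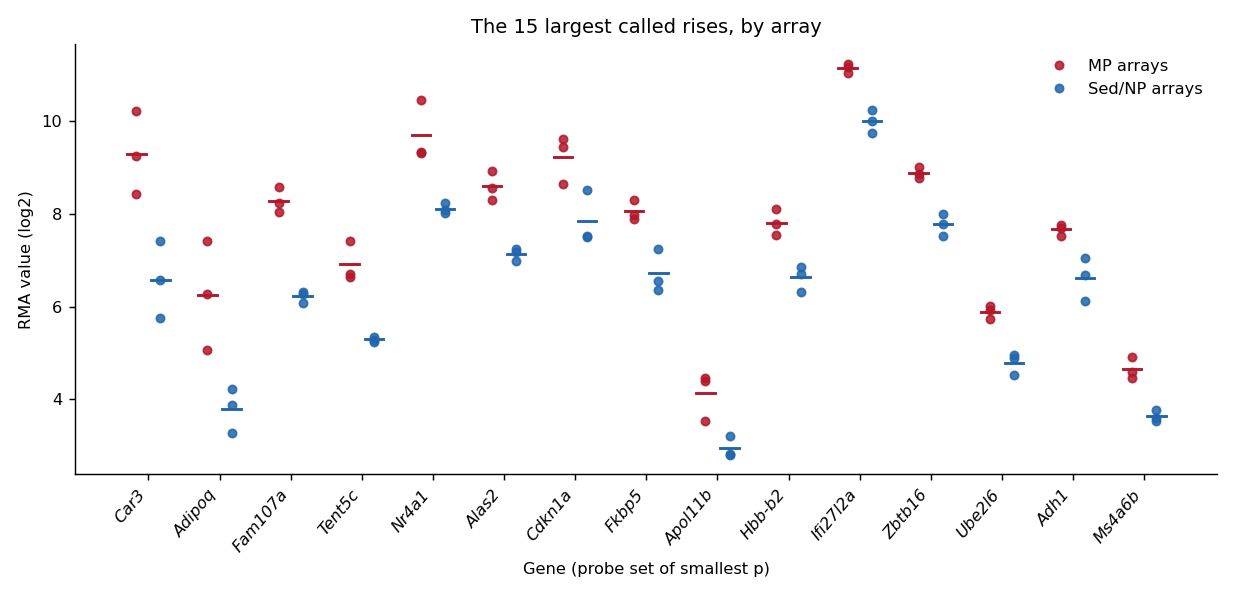
RMA value (log2, vertical axis) of the largest called rises in each MP array and each Sed/NP array, 1 point per array, at the probe set of smallest p. In every gene shown the 3 MP points lie above the 3 Sed/NP points. Car3 and Adipoq have the widest spread within MP.

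Of 40 target genes of the glucocorticoid and progesterone receptors 10 rose and 2 fell, 7 and 1 of them called. At the probe set of highest mean 6 rose and 1 fell, with a median of 0.40. The list was written with earlier results of these data known, so its count is a description. Upstream windows of Fam107a, the called target with the largest rise, and of Fkbp5, a target of both receptors named above, are shown with capitals on AGAACA, the hexamer that both receptors bind, on either strand. Fam107a has 3 listed starts, of which the one shown is at chr14:8309780-8310029 on the minus strand, and Fkbp5 is at chr17:28486150-28486399 on the minus strand (GRCm38.p6, RefSeq, 250 bases before the start).
Fam107a: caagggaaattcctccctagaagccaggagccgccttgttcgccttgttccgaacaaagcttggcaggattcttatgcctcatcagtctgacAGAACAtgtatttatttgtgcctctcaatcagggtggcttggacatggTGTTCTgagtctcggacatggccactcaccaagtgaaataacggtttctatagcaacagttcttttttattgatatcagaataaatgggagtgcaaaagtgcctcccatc
Fkbp5: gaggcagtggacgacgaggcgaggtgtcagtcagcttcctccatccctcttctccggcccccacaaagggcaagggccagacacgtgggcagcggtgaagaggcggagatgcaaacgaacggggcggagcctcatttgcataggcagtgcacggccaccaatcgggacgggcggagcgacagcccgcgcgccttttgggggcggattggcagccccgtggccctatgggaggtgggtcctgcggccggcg
The Fam107a window holds the hexamer as AGAACA from 153 to 158 bases before the start and again nearer to the start as its reverse complement, and the Fkbp5 window does not hold it. Of the 6 called targets with a listed start, Fam107a and Sgk1 held AGAACA, at 5 of 14 start sites, beside 16.1% of all start sites. The third listed start of Fam107a does not hold it, and the start shown and another lie 2 bases apart, so that their shared matches are counted for each.

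Fam107a, an actin-binding protein that glucocorticoids and stress induce in brain, measured 8.24, 8.05 and 8.59 in MP against 6.32, 6.27 and 6.08 in Sed/NP, with a difference of 2.07 ± 0.24 (adjusted p = 0.000458, 4.19-fold). Fkbp5, a co-chaperone that restrains the glucocorticoid receptor and is one of its most responsive targets, measured 7.88, 7.99 and 8.30 against 7.25, 6.54 and 6.35, a difference of 1.34 ± 0.22 (adjusted p = 0.00778). The groups did not overlap for either, and Sed/NP-1 was the highest control for both. Fam107a passed at 2 of 3 probe sets and Fkbp5 at 1 of 3, and the average of the Fkbp5 probe sets differed by 0.52 (limma adjusted p = 0.0618). Zbtb16, a zinc finger transcription factor induced by progesterone and glucocorticoids, measured 8.86, 8.77 and 9.01 against 8.01, 7.79 and 7.53 (1.10 ± 0.26, adjusted p = 0.043). This was 1 of its 3 probe sets, and the one of highest mean gave 1.13 ± 0.30 and did not pass (adjusted p = 0.0715). Cdkn1a, which encodes the cell cycle inhibitor p21, measured 9.44, 8.65 and 9.62 against 8.51, 7.50 and 7.53 and rose at both of its probe sets (1.39 ± 0.27, adjusted p = 0.018). Sgk1, the serum and glucocorticoid regulated kinase, measured 10.50, 10.02 and 10.53 against 9.81, 9.45 and 9.26 (0.84 ± 0.18, adjusted p = 0.0314), and the stress kinase Map3k6 rose by 0.96 ± 0.17 (adjusted p = 0.00965).

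Smaller rises on the list were those of Nfkbia, the inhibitor of NF-kappa-B (0.66 ± 0.12, adjusted p = 0.0154, 4 of 5 probe sets), of Hif3a (0.56 ± 0.10) and of the secreted protein Crispld2 (0.40 ± 0.07). The metallothionein Mt1 rose at a probe set of low level (0.84 ± 0.14, mean 5.68 over the 18 arrays), while its probe set of highest mean, at 12.3, differed by 0.37 ± 0.18 (adjusted p = 0.381). The muscle ubiquitin ligase Trim63, which glucocorticoids raise in skeletal muscle, fell by 0.32 on the log2 scale (SE 0.07, adjusted p = 0.0407). Other well known targets did not pass: the clock gene Per1 differed by 0.75 ± 0.19 (adjusted p = 0.06), Tsc22d3 by 0.45 ± 0.14 (adjusted p = 0.128) and Mt2 by 0.79 ± 0.36 (adjusted p = 0.32), although the groups did not overlap for any of the 3.

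The count of these targets rested on MP-3. Leaving it out left 1 rise, Fam107a, while Fkbp5 (1.22, adjusted p = 0.0603), Cdkn1a (1.20, adjusted p = 0.117), Map3k6 (0.92, adjusted p = 0.0651) and Mt1 (0.78, adjusted p = 0.0603) kept most of their size but missed the threshold. Without Sed/NP-3 there were 6 rises and without Sed/NP-2 7. Zbtb16 missed the threshold without any 1 of the 6 arrays (0.98 to 1.22). Fam107a passed in each of these fits.

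The receptors did not rise. The glucocorticoid receptor gene Nr3c1 was lower at 1 of its 6 probe sets, at 5.36, 4.38 and 4.51 in MP against 6.23, 5.60 and 5.71 in Sed/NP (-1.09 ± 0.26, adjusted p = 0.0468), a probe set of low level. At its probe set of highest mean, 9.07 over all arrays, the difference was -0.02 ± 0.11 (adjusted p = 0.961), and the fall did not pass without any 1 array other than MP-1. The progesterone receptor gene Pgr was at 4.13, 3.82 and 3.82 against 3.97, 4.09 and 3.89, below the array medians with the groups overlapping, and the estrogen receptor gene Esr1 at 4.48, 4.90 and 4.63 against 4.48, 4.37 and 4.39 (0.26 ± 0.10, adjusted p = 0.226). Of 19 hormone receptor genes measured 0 rose by limma or by Cyber-T, and 1 was higher at an unadjusted p under 0.05 at its probe set of highest mean.

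Macrophage markers that passed rose by 0.32 to 0.72. Of 8 macrophage markers 6 rose and 0 fell. At the probe set of highest mean the median was 0.56 and the lowest value -0.13. The list was above Sed/NP outside MP too. Its mean was 7.86 to 8.24 in the running, LP and post-partum arrays, beside 8.04 to 8.20 in MP and 7.60 to 7.80 in Sed/NP. All these groups are set against the same Sed/NP arrays. In the direct contrast with LP, 2 of the 8, Csf1r and C1qb, were higher in MP and 0 lower. Complement C1qb, which tissue macrophages secrete, measured 8.29, 8.87 and 8.66 in MP against 7.84, 7.95 and 7.87 in Sed/NP and rose at each of 3 probe sets (0.72 ± 0.12, adjusted p = 0.00824). C1qa (0.59 ± 0.11), the scavenger receptor Cd163 (0.61 ± 0.11), the lysosomal Cd68 (0.56 ± 0.12), Adgre1, which encodes F4/80 (0.56 ± 0.13), and the growth factor receptor Csf1r (0.32 ± 0.08) rose less. Ms4a6b, a membrane protein of immune cells, rose at both probe sets (1.02 ± 0.14, adjusted p = 0.00313). The 6 became 0 without MP-3, 1 without MP-2 (C1qb) or Sed/NP-3, 2 without Sed/NP-2 and 3 without Sed/NP-1, whereas Ms4a6b passed each time.

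Interferon-stimulated genes were higher almost throughout, but few passed. Of 32 measured, 31 had a positive difference, with a median of 0.54 beside 0.03 over all genes, and 3 rose. Isg20 (0.89) and Ube2l6 (1.10) also rose, but they were counted in the red cell and heme list and not in this one. Ifi27l2a measured 11.05, 11.17 and 11.25 in MP against 10.25, 10.01 and 9.76 in Sed/NP (1.15 ± 0.23, adjusted p = 0.0189), Ifi27 rose at both probe sets (0.85 ± 0.17, adjusted p = 0.019), and Rsad2, the antiviral enzyme viperin, rose by 0.85 ± 0.20 (adjusted p = 0.0423). Ifit1, a sensor of viral RNA, was at 7.82, 8.31 and 8.21 against 7.20, 7.01 and 6.95, a gap with no overlap that did not pass (1.06 ± 0.48, adjusted p = 0.32). The master regulator Irf7 (1.03 ± 0.34, adjusted p = 0.145) and Usp18, which curbs the response (0.83 ± 0.33, adjusted p = 0.247), also did not overlap and did not pass. The standard errors here come from all 6 groups. In a fit of the MP and Sed/NP arrays alone 8 genes of the list passed, and under Cyber-T, which estimates the spread from probe sets of similar level, 19. Counts by Cyber-T within lists, here and below, have no fold limit. The share of all genes passing by that rule was not counted, so they have no background beside them. The 3 became 0 without MP-3, Sed/NP-2 or Sed/NP-3 and 1 without MP-2.

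Genes of the vessel wall moved in different directions. Sox17, a transcription factor of arterial endothelium, measured 8.14, 8.20 and 8.52 in MP against 7.26, 7.37 and 7.30 in Sed/NP and rose at both probe sets (0.97 ± 0.11, adjusted p = 0.000394). Rgcc, a cell cycle regulator expressed in capillary endothelium, measured 10.73, 10.62 and 11.07 against 9.71, 10.05 and 9.67 (1.0 ± 0.16, adjusted p = 0.00532). Lyve1, a hyaluronan receptor of lymphatic endothelium and of resident macrophages, measured 8.64, 9.03 and 9.19 against 8.21, 7.98 and 7.75 (0.97 ± 0.14, adjusted p = 0.00344). These 3 genes passed with any 1 array left out, and the 9 endothelial markers as a list differed by 0.12, with the groups' mean levels at 8.77 in MP and 8.65 in Sed/NP.

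Prox1, the transcription factor that sets lymphatic identity and is also expressed in cardiomyocytes, went the other way from Lyve1. It measured 7.58, 6.52 and 6.85 in MP against 8.28, 8.24 and 7.91 in Sed/NP, fell at 2 of its 3 probe sets, the brightest included (-1.16 ± 0.23, adjusted p = 0.0225), and kept the threshold without MP-1 or Sed/NP-3 only. The VEGF receptor gene Flt1 rose at 1 of 4 probe sets (0.48 ± 0.11, and 0.25 at the highest mean). Vegfb, a growth factor made by cardiomyocytes, fell at its only probe set (-0.33 ± 0.08, adjusted p = 0.0407). The matrix protease Adamts1 rose by 0.77 ± 0.17 (adjusted p = 0.0351). In all, 2 of 37 genes of angiogenesis rose and 5 fell at any probe set, but at the probe set of highest mean 1 rose and 1 fell. There Cdh13 and Jam2 differed by -0.18 and -0.12, and the sign of Nrp1 and Nrp2 turned. With 1 array left out the falls at any probe set were 0 (without MP-3) to 7 (without MP-1).

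Among 29 immediate early genes, which cells switch on within minutes of a stimulus, 1 passed. The nuclear receptor Nr4a1 measured 9.32, 9.34 and 10.47 in MP against 8.24, 8.09 and 8.03 in Sed/NP, and rose by 1.59 ± 0.32 (adjusted p = 0.0224, 3.02-fold). Without MP-3, the highest pool, the difference was 1.21 (adjusted p = 0.141), and it also missed the threshold without any 1 Sed/NP array. The AP-1 subunit Fos was at 7.94, 7.76 and 8.61 against 7.00, 6.32 and 6.04, with no overlap, and did not pass (1.64 ± 0.42, adjusted p = 0.0635). Atf3 (0.49 ± 0.19, adjusted p = 0.221) and Egr1 (0.09 ± 0.40, adjusted p = 0.958) were within the spread of the arrays. Csrnp1, a nuclear protein induced by AXIN1, rose by 0.84 ± 0.14 (adjusted p = 0.00778, and 0.0603 without MP-3).

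Among 39 extracellular matrix genes 7 rose and 0 fell, none of them called at the 75% limit, and 4 rose at the probe set of highest mean. There 36 of the 39 were positive, and the median was 0.28. Col1a2, a chain of type I collagen, measured 8.73, 9.14 and 8.95 in MP against 8.19, 8.12 and 8.38 in Sed/NP (0.71 ± 0.12, adjusted p = 0.00824), although its probe set of highest mean gave 0.38 ± 0.10 (adjusted p = 0.06). Col5a1 (0.43 ± 0.10), Col5a2 (0.47 ± 0.11), Col6a3 (0.45 ± 0.09), the elastin gene Eln (0.60 ± 0.14) and Sparc (0.50 ± 0.11), a collagen-binding glycoprotein, rose as well. The decorin gene Dcn rose at a dim probe set (0.46 ± 0.08) and differed by -0.01 at its brightest. The 7 became 12 without MP-1, 3 without Sed/NP-3 and 1 without MP-2, MP-3 or Sed/NP-2. Fibroblast markers averaged 10.03 ± 0.13 in MP and 9.84 ± 0.11 in Sed/NP (SD, n = 3 each).

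Other single rises had a range of functions. Gdf10, a growth factor of the BMP family, measured 5.43, 5.49 and 5.42 in MP against 4.73, 4.62 and 4.55 in Sed/NP, with very little spread within either group (0.81 ± 0.09, adjusted p = 0.000394). Adh1, the alcohol and retinol dehydrogenase, rose by 1.05 ± 0.20 (adjusted p = 0.018), together with the retinal dehydrogenase Aldh1a1 (0.54 ± 0.08, adjusted p = 0.00405). The growth factor gene Igf1 rose at 1 of 4 probe sets (0.62 ± 0.13, adjusted p = 0.0254), and so did Myl1, an essential light chain of fast skeletal muscle, at its only probe set (0.74 ± 0.12, adjusted p = 0.00606). Of 34 genes of the cell cycle 28 were positive with a median of 0.23, and 2 rose, the spindle protein Aspm (0.57 ± 0.11) and the midzone protein Prc1 (0.41 ± 0.10). Aldh1a1, Gdf10 and Myl1 passed with any 1 array left out. Igf1 missed the threshold in 4 of these fits, Adh1 in 4 of them, and without MP-2, Sed/NP-2 or Sed/NP-3 no gene of the cell cycle passed.

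**Figure D3:**
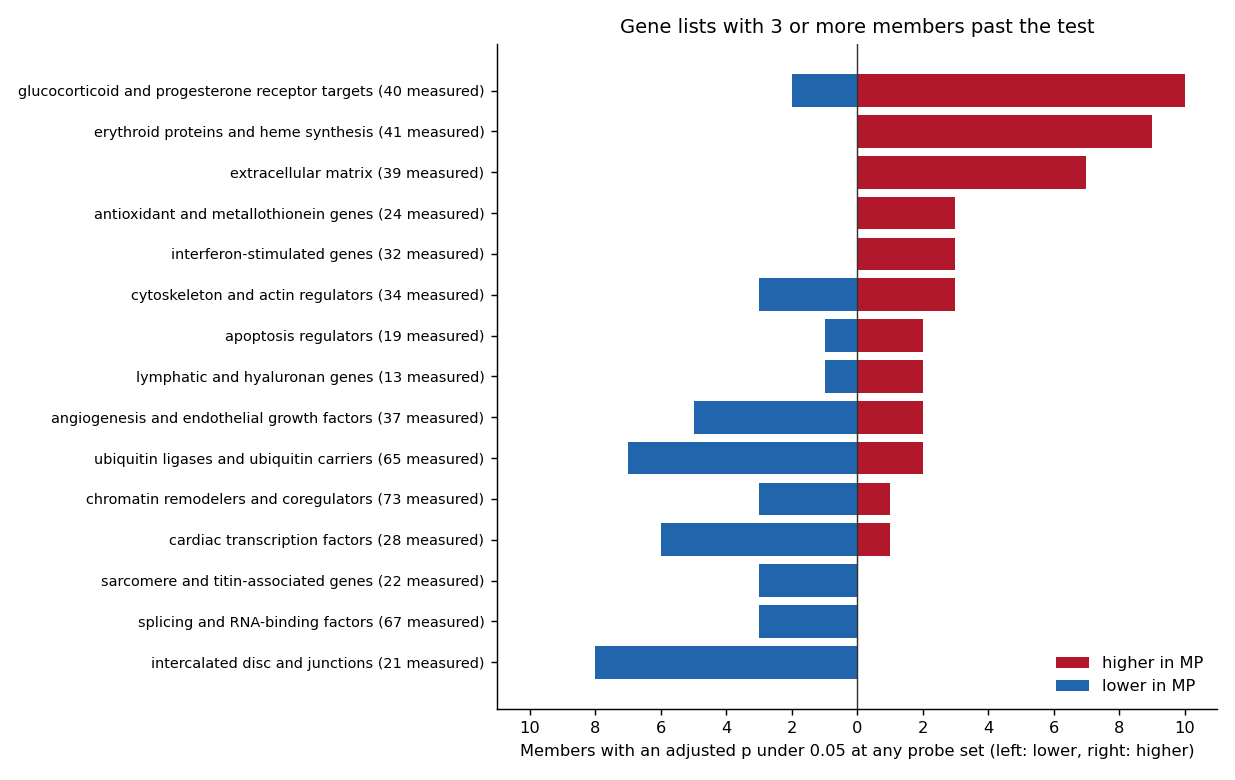
Number of members with an adjusted p under 0.05 at any probe set, to the right for genes higher in MP and to the left for genes lower, in each list with at least 3 such members (number measured in brackets). Receptor targets, erythroid and matrix genes lie mostly to the right (10, 9 and 7), and junction genes, ubiquitin genes and cardiac transcription factors mostly to the left (8, 7 and 6).

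The falls differed from the rises in what probe set carried them. Of the 35 called rises 24 have several probe sets, 28 are shown by the one of highest mean, and at that probe set 32 of the 35 passed. Of the 32 called falls 31 have several probe sets, 2 are shown by the one of highest mean, and at that probe set 3 passed, Prox1, Sox4 and Gm19277. The median of the falls was -0.91 at the probe set shown and -0.11 at that of highest mean, and the median level was 6.01 against 9.09. Over all genes the probe set of highest mean gave 174 rises (0.956%) and 36 falls (0.198%). Where these probe sets lie in their transcripts was not analysed here.

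**Figure D4:**
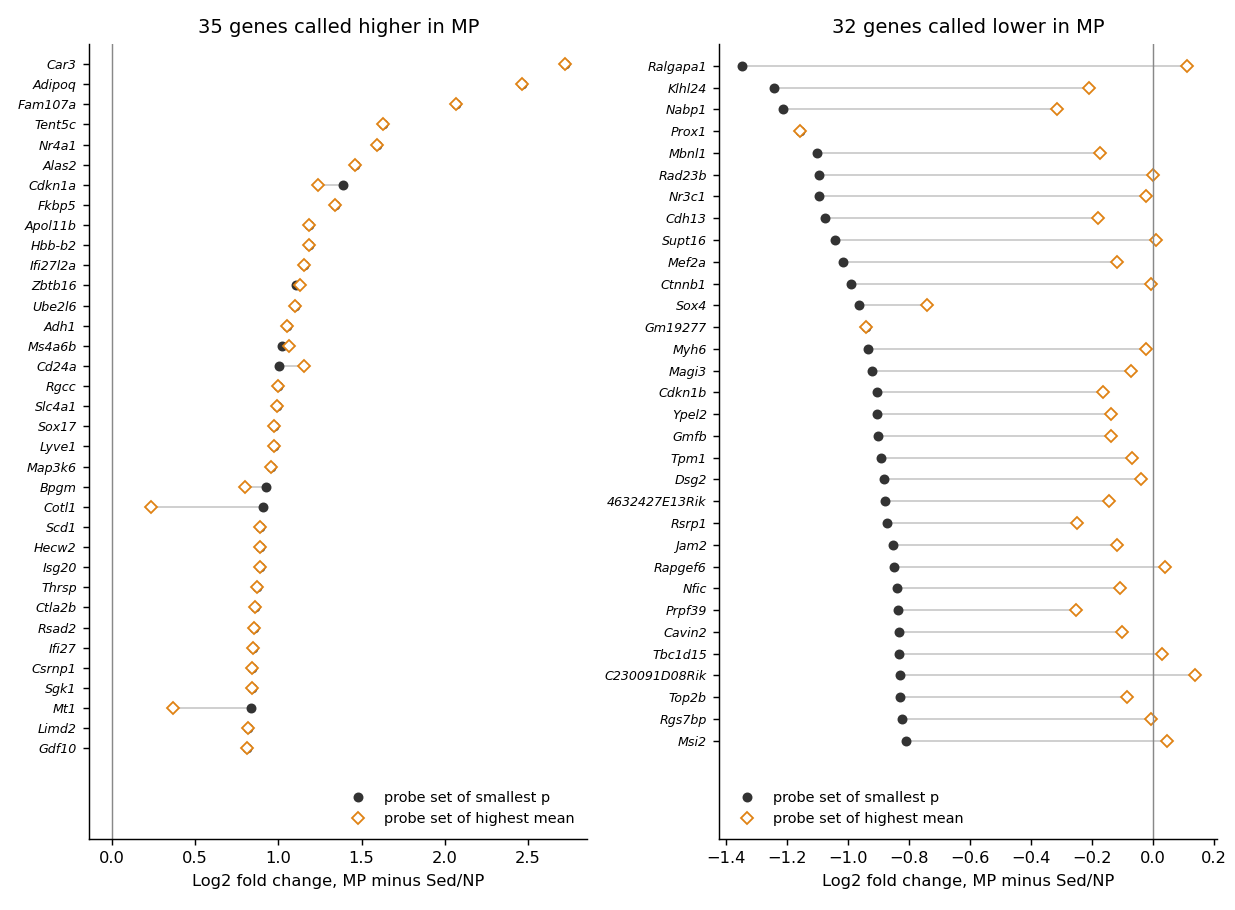
Log2 difference of MP minus Sed/NP (horizontal axis) of each called gene at its probe set of smallest p (filled) and at the one of highest mean (open diamond), for the 35 called rises and the 32 called falls. For most rises the marks coincide, whereas for most falls the open mark lies near 0.

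Genes of the cell junctions at the intercalated disc illustrate this. Of 21, 8 fell and 0 rose, and 5 of the 8 were called, but at the probe set of highest mean limma passed 0 of 21, with 6 lower and 0 higher at an unadjusted p under 0.05. Over all probe sets 6405 of 45037 were under that p, in either direction. Cyber-T, at any probe set and without a fold limit, passed 11 of the list. The desmosomal cadherin Dsg2 measured 5.09, 4.28 and 4.56 in MP against 5.68, 5.34 and 5.55 in Sed/NP at the dim probe set (-0.88 ± 0.20, adjusted p = 0.0407), and differed by -0.04 ± 0.10 at the brightest. Beta-catenin, Ctnnb1, measured 6.80, 6.99 and 6.62 against 8.44, 7.45 and 7.49 (-0.99 ± 0.23, adjusted p = 0.0431), and -0.01 ± 0.07 at the brightest. Jam2 (-0.85 ± 0.18 and -0.12), Magi3 (-0.92 ± 0.22 and -0.07) and Cdh13 (-1.07 ± 0.19 and -0.18) differed likewise. The gap junction gene Gja1 is the closest to its brightest probe set, with -0.31 ± 0.07 (adjusted p = 0.0333) and -0.26 ± 0.07 (adjusted p = 0.0912). The 8 became 10 without MP-1, 2 without Sed/NP-1 or Sed/NP-3, and 1 without MP-2, MP-3 or Sed/NP-2.

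Cardiac transcription factors fell more than they rose, 6 against 1 of 28. Sox4, an SRY-related factor of heart development, measured 5.55, 5.34 and 5.17 in MP against 6.14, 6.35 and 6.47 in Sed/NP and fell at 3 of 8 probe sets (-0.96 ± 0.15, adjusted p = 0.00606), also at the brightest (-0.74 ± 0.16, adjusted p = 0.0325). Mef2a fell at 3 of 6 (-1.01 ± 0.24, and -0.12 at the brightest), and Nfic (-0.84 ± 0.16), Nfib (-0.70 ± 0.11) and Gata4 (-0.71 ± 0.14) fell at dim probe sets only. Hand2, a basic helix-loop-helix factor of heart development, measured 9.27, 9.27 and 9.85 against 8.75, 8.82 and 8.61 and rose at its brightest probe set (0.74 ± 0.12, adjusted p = 0.00778). Sox4, Nfib and Hand2 passed with any 1 array left out. The 6 falls became 11 without MP-1, 2 without MP-3, 3 without MP-2 or Sed/NP-1 and 4 without Sed/NP-2.

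Most of the largest called falls, Prox1 apart, were at probe sets dimmer than the brightest of the gene. Ralgapa1, a subunit of the complex that switches off Ral GTPases, measured 4.93, 3.51 and 3.90 in MP against 5.83, 5.54 and 5.01 in Sed/NP (-1.35 ± 0.27, adjusted p = 0.0233), beside 0.11 ± 0.09 at the brightest of its 8 probe sets. Klhl24, a ubiquitin ligase adaptor that controls desmin and keratin, measured 6.89, 5.63 and 5.97 against 7.48, 7.77 and 6.96 (-1.24 ± 0.29, adjusted p = 0.0452). A brighter probe set of Klhl24, with a mean of 8.64, also fell (-1.37 ± 0.33, adjusted p = 0.046), and the brightest, at 10.24, differed by -0.21. MP-1 was the highest MP pool in both. Nabp1, a single-strand DNA binding protein (-1.21 ± 0.27 and -0.31), the splicing regulator Mbnl1 (-1.10 ± 0.25 and -0.17), the proteasome shuttle Rad23b (-1.09 ± 0.22 and 0.00) and the histone chaperone Supt16 (-1.04 ± 0.24 and 0.01) differed in the same way between their probe sets. Without MP-2 or MP-3 only 3 of the 32 called falls passed in each case.

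Of the called falls, Rsrp1 and Sox4 passed with any 1 array left out. Rsrp1, a serine and arginine rich nuclear protein, measured 7.78, 8.07 and 8.18 in MP against 9.0, 8.72 and 8.92 in Sed/NP (-0.87 ± 0.13, adjusted p = 0.00364), and -0.25 ± 0.10 at its brightest of 3. Gm19277, a predicted gene with 1 probe set, measured 5.82, 6.13 and 6.34 against 6.91, 7.20 and 7.00 (-0.94 ± 0.18, adjusted p = 0.018) and missed the threshold without MP-2 (adjusted p = 0.0536) or Sed/NP-2 (adjusted p = 0.0734).

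Of 67 splicing and RNA-binding genes 3 fell and 0 rose, 14 were positive, and the median was -0.08. They were Mbnl1, Sfpq (-0.72 ± 0.16) and Luc7l2 (-0.50 ± 0.11), and at the brightest probe set limma passed 0 of the 67, with 18 lower and 3 higher at an unadjusted p under 0.05. Over all probe sets 6405 of 45037 were under that p, in either direction. Under Cyber-T without a fold limit 20 of the list fell, and the share of all genes that did so was not counted. Of 65 ubiquitin ligases and carriers 7 fell and 2 rose, 30 were positive, and the median was -0.03. At the brightest probe set 3 of them fell: the carrier Ube2b (-0.39 ± 0.07), the ligase Ubr2 (-0.34 ± 0.08) and Trim63. MP-1 moved both counts, since without it 23 splicing and 17 ubiquitin genes fell, and without MP-2 or MP-3 the falls were 0 in each list. Of 42 proteasome subunits 1 fell, Psmd7 (-0.45 ± 0.10, adjusted p = 0.0377).

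The contractile apparatus and the markers of hypertrophy gave little. The alpha-myosin heavy chain Myh6, the main motor of the mouse ventricle, measured 9.99, 9.34 and 9.08 in MP against 10.85, 10.20 and 10.16 in Sed/NP at its dimmer probe set (-0.93 ± 0.22, adjusted p = 0.0452). At the brighter one, with a mean of 14.5, it differed by -0.02 ± 0.06. Tpm1, the tropomyosin of the thin filament, likewise gave -0.89 ± 0.20 at a dim probe set and -0.07 ± 0.06 at the brightest. The natriuretic peptide genes, classical signs of a loaded heart, did not pass: Nppa was at 11.49, 10.90 and 10.64 in MP and 11.46, 11.34 and 11.29 in Sed/NP (-0.35 ± 0.26, adjusted p = 0.6), and Nppb at 12.31, 11.65 and 12.24 against 11.79, 11.49 and 11.92 (0.33 ± 0.19, adjusted p = 0.468). Neither did skeletal actin Acta1 (0.16 ± 0.22, adjusted p = 0.831) or beta-myosin Myh7 (-0.06 ± 0.47, adjusted p = 0.979), and the groups overlapped for all 4. The large standard error of Myh7 means that even a sizeable difference was not detectable with these arrays.

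Several lists held no gene that passed. Of 28 respiratory chain genes, 21 clock genes, 21 chaperones and 18 genes of SUMO and ubiquitin-like conjugation, 0 passed by limma in either direction. At an unadjusted p under 0.05 at the probe set of highest mean there were 0, 2, 2 and 5 in the order of the lists. Over all probe sets 6405 of 45037 were under that p. Cyber-T passed 0, 2, 2 and 0 without a fold limit. Their medians lay between -0.05 and 0.04.

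The MP pools were compared directly with the other groups at the same probe sets. The contrasts of the groups with Sed/NP share the Sed/NP arrays, so their values are given side by side and not related. The 35 called rises had a median of 0.18 in 7Ex, 0.24 in 21Ex, 0.53 in LP and 0.52 in 0PP, against 0.99 in MP. Over all genes, 158 (0.868%) were higher and 199 (1.09%) lower in MP than in LP, 59 (0.324%) and 80 (0.44%) than in 0PP, 107 (0.588%) and 65 (0.357%) than in 7Ex, and 81 (0.445%) and 87 (0.478%) than in 21Ex. Of the 35 rises, which had been picked for being high in the same MP arrays, 11 were higher in MP than in LP, 10 than in 0PP, 21 than in 7Ex and 21 than in 21Ex.

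Of the 41 genes of the red cell and heme list 8 were higher and 0 lower in MP than in LP, among them 7 of the 9 rises, whose probe sets had been picked on the same MP arrays. Alas2 was at 1.46 against Sed/NP in MP, -0.35 in LP and 0.60 in 0PP, and it was higher in MP than in LP by 1.81 (adjusted p = 1.62e-06) and than in 0PP by 0.86 (adjusted p = 0.0158). Tent5c was at 1.63, -0.41 and 0.64, and Hbb-b2, which is not on the list, at 1.19, -0.51 and 0.52. After running, Alas2 was at 0.07 in 7Ex and 0.17 in 21Ex. Nr4a1 was at 1.59 in MP, 0.08 in LP and -0.05 in 0PP, and higher in MP than in either (adjusted p = 0.0217 and 0.0345).

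Of the 40 receptor targets 2 were higher and 3 lower in MP than in LP. Fkbp5 was at 1.34 in MP, 1.54 in LP and 0.95 in 0PP against 0.24 in 7Ex and 0.06 in 21Ex, and the direct difference of MP from LP was -0.20 (adjusted p = 0.745). Fam107a was at 2.07, 1.51 and 0.55 in MP, LP and 0PP and at -0.57 and -0.29 in 7Ex and 21Ex, and MP exceeded 0PP by 1.52 (adjusted p = 0.0165). Car3 was at 2.72, 1.78 and 1.98, and MP exceeded 21Ex (adjusted p = 0.0167), where Car3 was at 0.32, while its differences from LP, 0PP and 7Ex did not pass. Of the 39 matrix genes 17 were higher and 0 lower in MP than in LP, and Col1a2 was at 0.71 in MP and -0.19 in LP, with a direct difference of 0.90 (adjusted p = 0.000899). Of the 22 fatty acid oxidation genes 16 were lower and 0 higher in MP than in LP, with a median difference of -0.45. Of the 34 cell cycle genes 9 were higher and 0 lower.

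The called falls were lower than Sed/NP in the other groups too, by medians, although these contrasts share the same Sed/NP arrays. The median was -0.73 in 7Ex, -0.85 in 21Ex, -0.47 in LP and -0.60 in 0PP, against -0.91 in MP. In direct contrasts with LP, 0PP, 7Ex and 21Ex the same 1 of the 32, Rsrp1, was lower in MP. It lay between -0.18 and 0.04 against Sed/NP in the other groups. Ralgapa1, by contrast, was at -1.38 in 7Ex and -1.73 in 21Ex, beside -1.35 in MP.

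**Figure D5:**
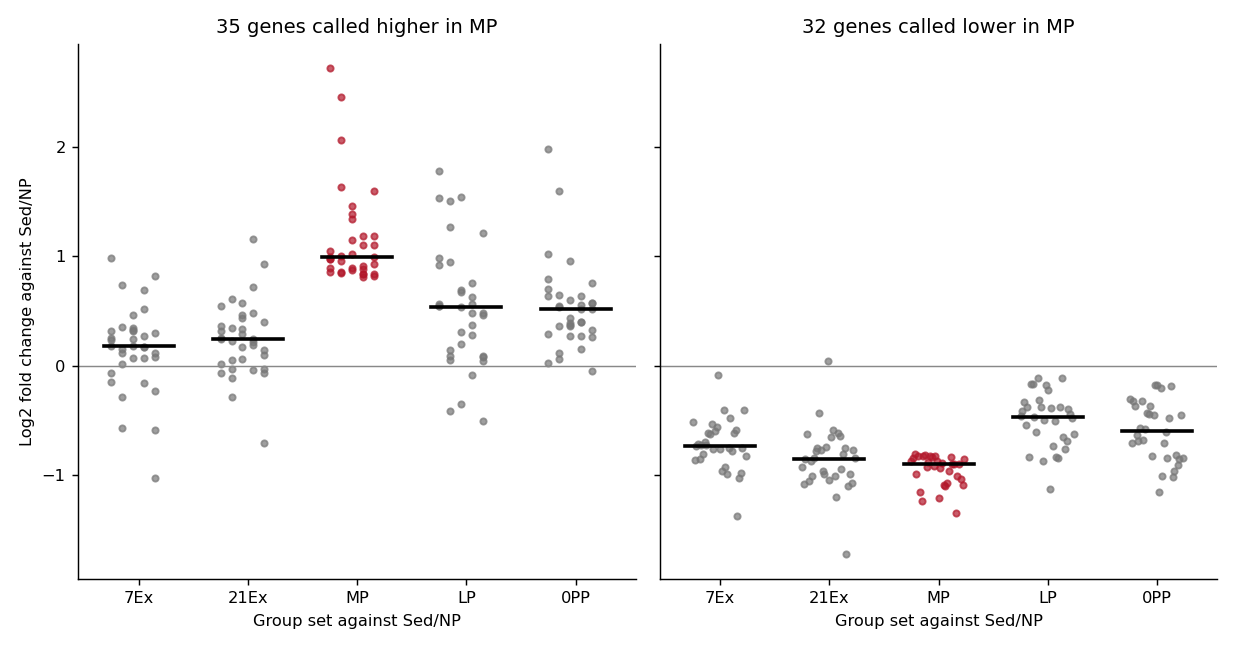
Log2 difference against Sed/NP (vertical axis) of the 35 genes called higher and the 32 called lower in MP, in each of the 5 groups, with 1 point per gene and a black bar at the median. The rises are highest in MP, where they were chosen, with medians of 0.53 in LP and 0.18 in 7Ex, and the falls lie at similar depth in MP and 21Ex, with medians of -0.91 and -0.85.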

How the data were processed

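Affymetrix whole-genome mouse arrays of pooled left ventricular RNA were analysed from the log2 values deposited by the authors, who made them with RMA across all 18 arrays in R 2.12.2, which corrects the background, makes the arrays' distributions equal and gives 1 value a probe set. RMA compresses differences at low levels, and the depth of an array is set by its probes, so precision is limited by the 3 pools a group. Of 45101 probe sets 64 controls were left out. A single gene was annotated to 34945 probe sets, of which 34741 had an ID in a RefSeq table, several genes to 932, and 9160 had no gene. Genes with no probe set of their own are not analysed here.

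All 6 groups entered 1 linear model (limma 3.58.1, R 4.3.3), with two-sided moderated tests (12 residual and 6.452 prior degrees of freedom) and Benjamini-Hochberg adjustment over 45037 probe sets within each contrast. The limit of 75% equals a log2 difference of 0.807. Each gene is given at its probe set of smallest p for MP against Sed/NP. The script was tested on simulated data. Groups came from the array labels.

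Named were called genes, passing members and the first 4 measured members of each list, and genes that the study names for MP. The members and lists were chosen with earlier results of these data known. Single values were tested by exact permutation. Motifs were searched on both strands of 250 bases.

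Alternatives were no fold limit, Cyber-T (re-implemented, window 101, prior weight 10, PPDE 0.95), the 2 groups alone, an intensity trend, median centring, a second quantile normalization, a filter keeping means of 5 or more, other probe set rules, a replicate block, the beta-actin 3′ minus 5′ signal and each array left out.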

Additional observations from a re-analysis of the deposited data

Results flagged for a closer look

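Direct contrasts put several called rises of MP apart from the other stages of pregnancy. The genes had been picked on MP arrays that also enter these contrasts, and p-values are limma values adjusted over all probe sets. MP exceeded LP, on the log2 scale, by 2.05 for Tent5c (adjusted p = 7.6e-06), 1.81 for Alas2 (adjusted p = 1.62e-06) and 1.69 for Hbb-b2 (adjusted p = 0.000899). The difference was 0.95 for Slc4a1 (adjusted p = 0.0375), 0.84 for Bpgm (adjusted p = 0.00076), 0.97 for Isg20 (adjusted p = 0.00361) and 0.95 for Cd24a (adjusted p = 0.0129), a surface glycoprotein of blood cell precursors and other cells. It was 1.52 for Nr4a1 (adjusted p = 0.0217), 0.90 for the apolipoprotein L gene Apol11b (adjusted p = 0.0135) and 0.95 for Ifi27l2a (adjusted p = 0.0405).

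MP exceeded 0PP by 1.52 for Fam107a (adjusted p = 0.0165), 0.99 for Tent5c (adjusted p = 0.0267), 1.65 for Nr4a1 (adjusted p = 0.0345), 0.86 for Alas2 (adjusted p = 0.0158) and 0.98 for Rgcc (adjusted p = 0.0165).

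Outside the genes counted, 17 further probe sets passed the adjusted p and the fold limit but are annotated to several genes or to none, and their genes are not named here. Of these 8 were higher in MP, by up to 2.05 (adjusted p = 0.000364), and 9 were lower, by up to -1.08 (adjusted p = 0.00392).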

How the results depend on the processing

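Against the 67 called genes (35 higher and 32 lower in MP), 45 (32 and 13) were called with the 2 groups alone, 148 (55 and 93) by Cyber-T, 10 (8 and 2) after adjustment for the beta-actin 3′ minus 5′ signal, 23 (21 and 2) when a gene's probe sets were averaged and 33 (31 and 2) at the probe set of highest mean only. With no fold limit 383 passed, 213 higher and 171 lower, a gene with probe sets in both directions counting in each. The intensity trend, the low-value filter, repeated quantile normalization and median centring moved no count by over 1.5 times. Leaving out 1 array at a time gave 18 to 284 called genes, 15 to 50 higher and 3 to 234 lower. The lowest counts came without MP-3, which left 15 higher and 3 lower, and the highest without MP-1, which left 50 higher and 234 lower. Without Sed/NP-2 37 genes were called, and without Sed/NP-3 20 were higher. The lower calls numbered 7 without MP-2, 7 without Sed/NP-1 and 9 without Sed/NP-2.

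The replicate block left 51 called genes, 33 higher and 18 lower. Deviations from the group means correlated between same-numbered MP and Sed/NP arrays at 0.08, 0.02 and 0.13, and each MP array correlated best with its own number. Between arrays of different numbers the correlations lay between -0.103 and 0.0143. The labels do not say what the number stands for, and whether same-numbered arrays shared a batch was not tested.

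At the probe set of highest mean the sign turned for 16 of the 127 named genes, with log2 differences of 0.14 for C230091D08Rik, 0.016 for Ccdc141, 0.0037 for Ctnna3, -0.012 for Dcn, 0.013 for Huwe1, 0.062 for Kcnk3, 0.088 for Macf1, 0.047 for Msi2, 0.032 for Nrp1, 0.26 for Nrp2, 0.11 for Ralgapa1, 0.086 for Ralgapb, 0.039 for Rapgef6, 0.011 for Supt16, 0.029 for Tbc1d15 and 0.053 for Zmynd11. The cause was not tested. Of the 127 named genes, which all passed the adjusted p in the main fit, 118 missed the threshold with the 3′ minus 5′ covariate, 80 with the 2 groups alone and 13 by Cyber-T. Under Cyber-T all 35 called rises and all 32 called falls passed. With the covariate the sizes of the 67 called genes stayed between 0.687 and 1.37 times their values without it, while the median standard errors were larger.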

Other observations

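Of 73 chromatin remodelers and coregulators 1 rose and 3 fell in MP (limma adjusted p), beside 1.17% and 0.94% of all genes. Chd6, an ATP-dependent remodeler, measured 8.20, 8.27 and 8.22 in MP against 7.50, 7.45 and 7.43 in Sed/NP, with a narrow spread in both groups, and rose at its brightest probe set by 0.77 ± 0.13 (log2, SE, adjusted p = 0.00699). Kmt2a and Kmt2e, of the MLL family of chromatin proteins, fell at single probe sets (-0.49 ± 0.11 and -0.53 ± 0.11), with -0.12 and -0.10 at the brightest, and Zmynd11, a reader of histone marks, fell by 0.68 on the log2 scale at 1 of 4. Chd6 was also higher in MP than in 7Ex (adjusted p = 0.000768) and 21Ex (adjusted p = 0.00152). The falls on this list numbered 25 without MP-1, 4 without Sed/NP-3 and 0 without any 1 of the other 4 arrays.

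Genes of cell death gave 2 rises and 1 fall among 19. Apaf1, the scaffold of the apoptosome, measured 6.10, 6.25 and 6.12 in MP against 5.64, 5.57 and 5.55 in Sed/NP (0.57 ± 0.10, adjusted p = 0.00965). The death inhibitor Bcl2l1 rose by 0.68 ± 0.13 (adjusted p = 0.0138), and the death promoter Bcl2l11 fell at 1 of 5 probe sets (-0.49 ± 0.11, adjusted p = 0.0386). The genes thus included promoters and inhibitors of cell death among the rises. The falls became 4 without MP-1.

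Among the other called rises, Cd24a measured 4.77, 4.30 and 5.26 in MP against 3.64, 3.80 and 3.88 in Sed/NP and rose at each of 3 probe sets. Hecw2, a ubiquitin ligase, measured 5.77, 6.00 and 6.37 against 5.25, 5.16 and 5.05 (0.89 ± 0.15, adjusted p = 0.00749). Limd2 was higher than Sed/NP by 0.82 in 7Ex, 0.93 in 21Ex and 0.82 in MP. Of 27 chemokine and acute-phase genes 2 rose, the macrophage chemokine Ccl9 (0.81 ± 0.18, adjusted p = 0.0325) and Nfkbia, and Cyber-T passed 8. Gpx1, a glutathione peroxidase, rose by 0.37 ± 0.08 (adjusted p = 0.0239), and Stbd1, a glycogen-binding protein and the single rise among 21 genes of glucose metabolism, by 0.78 ± 0.15 (adjusted p = 0.0154).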
